A study of Homo sapiens with 6 samples.

Results

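The subject is a group of 10 carriers that move amino acids across the plasma membrane, with SLC7A5 at its head: SLC7A5, SLC3A2, SLC43A1, SLC1A4, SLC1A5, SLC38A1, SLC38A2, SLC7A1, SLC7A6 and SLC7A11. They were taken by gene name from the 28495 genes of the deposited expression table, and all 10 were among the 12466 genes with a mean FPKM (fragments scaled by gene length and sequencing depth) over the 6 libraries of 0.5 or more. RNA was measured in NCI-H1299, an established human lung carcinoma line that the labels call lung adenocarcinoma. The 2 groups were cells silenced for CFB (sh-CFB, 3 libraries) and control cells (sh-NC, 3 libraries). CFB encodes complement factor B, the protease-bearing component of the alternative complement pathway. Both groups were the same line with no other treatment named. No time point is given, nor whether one clone or a pool of silenced cells was used, nor does any label name a separate culture for each replicate. P-values therefore cover only how far these libraries vary, and that variation may be technical. The titles name short hairpins while the table's column names are of the kind used for siRNA, so the form of the reagent is not settled here.

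Amino acids cannot cross a membrane unaided, and the carriers divide the work by the charge and size of what they carry. SLC7A5 (LAT1) is an exchanger that brings in large neutral amino acids such as leucine and tryptophan and sends glutamine out. It reaches the cell surface only when bound to the heavy chain SLC3A2 (4F2hc, CD98), which also serves SLC7A6 and SLC7A11. The SLC38 carriers use the sodium gradient to build up the glutamine and small neutral amino acids that exchangers trade against. The SLC1 carriers of the group also need sodium but exchange neutral amino acids. SLC7A1 brings in arginine and lysine, and SLC7A11 brings in cystine for glutathione in exchange for glutamate. Tumour cells often carry high levels of SLC7A5 and SLC1A5, and several genes of the group are targets of ATF4, the transcription factor of the amino acid response. The series title names tryptophan metabolism, and SLC7A5 is the chief importer of tryptophan in many cells.

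The members were chosen by name with the measured FPKM differences of sh-CFB against sh-NC, the same contrast, already known, and the list includes carriers with and without a difference; there was no threshold. Their differences between the groups are therefore a description, and no p-value is given for them. A gene is said to have passed the threshold where limma's moderated test on log2(FPKM + 0.5) gave a Benjamini-Hochberg adjusted p under 0.05 over all 12466 genes. Over those genes 7.45% passed, 5.71% lower and 1.74% higher in sh-CFB, and the libraries of the groups did not overlap for 33.7% (lower in sh-CFB for 23.6%, higher for 10%). The median gene tested stood at -0.15 on the log2 scale, and dividing by median-of-ratios size factors moved that median up by 0.16. Differences below are given as deposited, with the distance from the median gene where it matters.

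Libraries held 26.2 M to 40.0 M recovered reads. CFB was near the floor of detection in all of them. It had 0, 0 and 2 reads in the silenced libraries against 1, 6 and 5 reads in the controls. Values are given for replicates 1, 2 and 3, in that order here and below. These reads are too few to check any one library's label or to measure the silencing at the RNA level. Calling libraries silenced therefore follows their labels. KRT18 (135 to 207 FPKM), KRT8 (31.8 to 55.2) and VIM (381 to 477) were abundant, while EPCAM, CDH1 and the surfactant genes SFTPA1, SFTPB and SFTPC were at 0.125 FPKM or less in every library. So the lung epithelial markers named were near 0 and 3 of 11 epithelial markers had a mean above 1 FPKM. Markers of immune cells (summed level at most 0.361 FPKM in a library), fibroblasts (0.329), endothelium (0.196) and erythroid cells (0.231) were near 0 in both groups. In each library the deviation of a gene from its mean ran with GC content across genes, with a Spearman rho of 0.60, -0.10 and -0.16 in the silenced libraries and of -0.55, -0.25 and 0.23 in the controls. These correlations describe genes that share a library and carry no p. Because sh-CFB replicate 1 and sh-NC replicate 1 lay at opposite ends, each carrier is also given after a smooth correction of every library for GC content and gene length.

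Promoter windows were read from RefSeq (GRCh38.p14), which held 16 windows for 9 of the 10 carriers; SLC7A11 had no entry. The 250 bases before a start site are shown 5′ to 3′ on the gene's strand for the 3 neutral or cationic carriers whose levels were lowest in sh-CFB relative to sh-NC without overlap, and for SLC38A1, whose groups overlapped. Capitals mark a match to 1 of 4 motifs searched on both strands: TGATGNAA (core of the amino acid response element), TGACNNNGC (core of the antioxidant response element), TGANTCA (AP-1) and CACGTG (E-box). The windows lie at chr16:87869508-87869757 (minus strand) for SLC7A5, chr2:64989149-64989398 (plus strand) for SLC1A4, chr13:29595689-29595938 (minus strand) for SLC7A1 and chr12:46266517-46266766 (minus strand) for SLC38A1. Their start sites lie 19, 922, 0 and 3501 bases from the gene start in GENCODE 29, in that order. SLC1A4 and SLC38A1 each have another window, not shown, that held none of the 4 motifs. That of SLC1A4 lies before a start 2 bases from its gene start and has 48.4% GC. For SLC38A1 it lies before a start 2030 bases away and has 61.6% GC. Both are nearer the gene start than the windows shown, so the GC content and matches given here depend on the window shown.
SLC7A5: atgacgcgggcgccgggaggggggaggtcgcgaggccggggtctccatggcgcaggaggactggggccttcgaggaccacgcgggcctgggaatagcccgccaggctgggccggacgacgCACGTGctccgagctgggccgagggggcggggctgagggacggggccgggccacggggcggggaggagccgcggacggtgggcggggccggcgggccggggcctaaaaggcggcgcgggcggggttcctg
SLC1A4: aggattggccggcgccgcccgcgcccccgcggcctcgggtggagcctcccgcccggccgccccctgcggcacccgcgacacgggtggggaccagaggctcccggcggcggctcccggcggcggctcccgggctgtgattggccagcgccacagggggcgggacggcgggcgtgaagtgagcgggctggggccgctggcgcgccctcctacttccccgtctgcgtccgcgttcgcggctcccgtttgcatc
SLC7A1: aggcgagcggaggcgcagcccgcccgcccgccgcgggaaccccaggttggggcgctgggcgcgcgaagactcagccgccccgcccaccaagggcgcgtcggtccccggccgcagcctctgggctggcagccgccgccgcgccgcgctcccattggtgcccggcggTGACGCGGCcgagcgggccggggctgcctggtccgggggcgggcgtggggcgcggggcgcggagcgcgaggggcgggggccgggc
SLC38A1: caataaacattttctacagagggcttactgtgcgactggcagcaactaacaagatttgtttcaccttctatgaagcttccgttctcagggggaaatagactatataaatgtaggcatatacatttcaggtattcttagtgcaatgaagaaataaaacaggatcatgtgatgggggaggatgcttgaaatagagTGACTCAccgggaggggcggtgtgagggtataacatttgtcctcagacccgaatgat
The SLC7A5 window carries an E-box 130 to 125 bases before the start, in a stretch of 79.6% GC. The SLC1A4 window, as rich in GC at 79.6%, held none of the 4 motifs. SLC7A1, at 84.4% GC, carries an antioxidant core 85 to 77 bases before its start, and SLC38A1, at 42.4% GC, an AP-1 match, the site type bound by FOS and JUN, 57 to 51 bases before its start. In SLC3A2 the antioxidant core TGACTCAGC, 37 to 29 bases before a start, contains an AP-1 match, so the same bases were counted under both motifs.

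Over all 16 windows the antioxidant core was found in 4 (SLC3A2, SLC1A5, SLC7A1 and SLC7A6), the E-box in 3 (SLC7A5, SLC43A1 and SLC1A5), AP-1 in 2 and the amino acid response core in 1, an SLC1A5 window. The SLC1A5 matches lie before start sites 1301 and 3780 bases from its gene start, and its window at the gene start held none. Those of SLC3A2 lie before a start 25597 bases from its gene start. Of 35116 RefSeq windows of the same length, 10.9% held the antioxidant core, 6.34% the E-box, 6.57% AP-1 and 3.14% the amino acid response core. A match describes letters and not a bound site, and known elements outside these windows were not searched.

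Across the 10 carriers, 9 lay below 0 in sh-CFB, where 67.7% of all genes tested did. The groups did not overlap for 7, with 6 lower and 1 higher in sh-CFB. SLC7A5 and SLC1A4 passed the threshold and 8 did not. Nothing is read from these counts, since the contrast was used to list the members. The median over the 10 was -0.55, or -0.40 from the median gene, and -0.42 with the correction for GC and length. By substrate the 6 neutral carriers had a median of -0.44 and spanned -1.32 to 0.27. The cationic carriers SLC7A1 and SLC7A6 stood at -0.98 and -0.50, the cystine carrier SLC7A11 at -1.06, and the heavy chain SLC3A2 at -0.52. Whether the substrate classes differ was not tested: 3 of the 4 hold 1 or 2 genes.

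**Figure D1:**
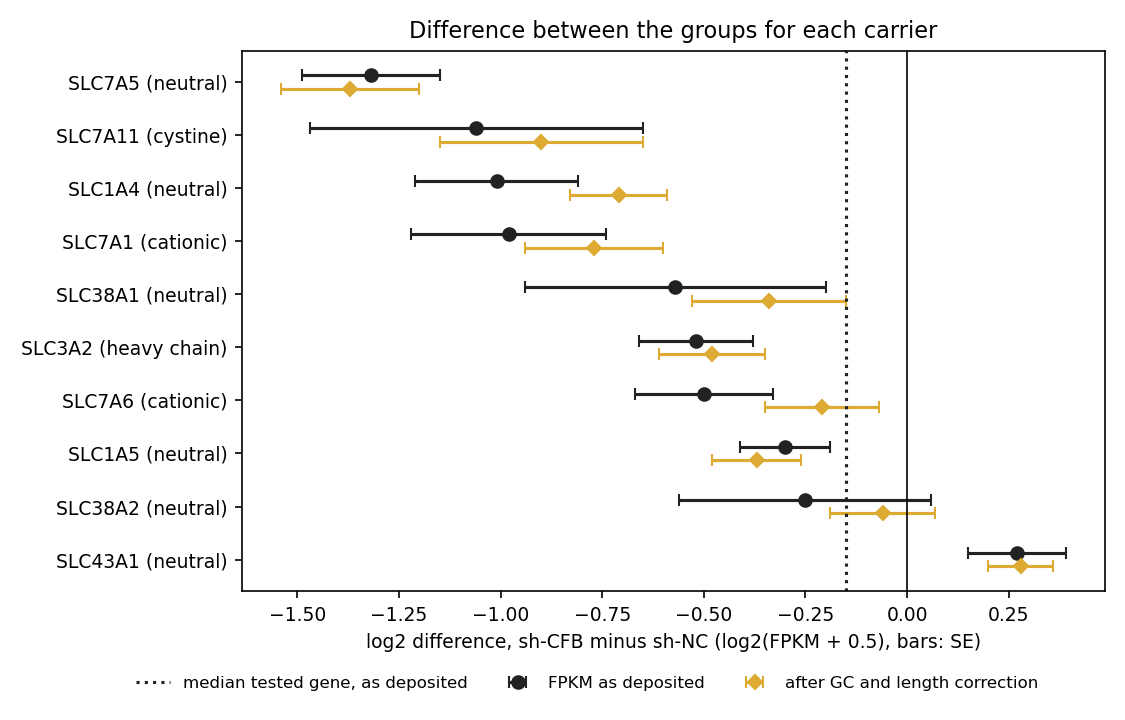
The horizontal axis is the log2 difference of sh-CFB minus sh-NC on the log2(FPKM + 0.5) scale and each row is 1 carrier with its substrate class; circles are values as deposited, diamonds values after the GC and length correction, bars the SE, and the dotted line the median gene tested. SLC7A5 lies farthest left at -1.32, SLC43A1 alone lies right of 0 at 0.27, and the correction moves SLC7A5 to -1.37 and SLC38A2 to -0.06.

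SLC7A5 (ENSG00000103257), the light chain that does the transport, lies at chr16:87830023-87869488 on the minus strand (GRCh38). FPKM stood at 29.9, 32.8 and 31.2 in the silenced libraries against 97.2, 83.5 and 60.6 in the controls. All 3 silenced libraries lay within a few FPKM of each other and below every control, while the controls were widely spread: the coefficient of variation was 4.51% in sh-CFB and 23.0% in sh-NC. The means were 31.3 ± 1.41 and 80.5 ± 18.5 (SD, n = 3 each), 2.57-fold higher in sh-NC. On the log2 scale the difference was -1.32 (SE 0.17), or -1.18 from the median gene; 0.754% of all genes tested stood at -1 or lower. In bulk RNA, fewer cells with the transcript and less of it per cell cannot be told apart. Between 3741 and 18271 reads lie behind each value, so counting error is small beside the spread between libraries. SLC7A5 passed the threshold in 14 of 16 other settings without a replicate block, and missed it without sh-CFB replicate 2 (-1.35) or without sh-NC replicate 2 (-1.28), while its difference stayed between -1.51 and -1.12 in all of them. Partial pseudogene copies of SLC7A5 exist, and how reads that fit several places were counted is not given in the sources used here, so its level is uncertain to that extent.

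The heavy chain SLC3A2 (ENSG00000168003, chr11:62856102-62888875, plus strand) was at 46.5, 39.6 and 43.6 FPKM in the silenced libraries against 72.3, 65.4 and 51.0 in the controls. No library of one group reached into the other, though sh-NC replicate 3 came within a few FPKM of the highest silenced library. The means, 43.2 ± 3.51 and 62.9 ± 10.9 (SD, n = 3 each), stood 1.45-fold apart, a smaller gap than for its partner. The difference was -0.52 (SE 0.14), or -0.38 from the median gene, and it did not pass the threshold, except without sh-NC replicate 3 (-0.67) and among genes of a mean FPKM of 2 or more. Another leucine carrier, SLC43A1 (LAT3; ENSG00000149150, chr11:57484534-57515786, minus strand), lets branched-chain amino acids and phenylalanine diffuse through without exchange or a heavy chain. It was at 5.57, 5.33 and 5.71 FPKM in the silenced libraries against 4.18, 4.46 and 4.88 in the controls. The silenced libraries were all above the controls, the reverse of the order in SLC7A5. Means were 5.53 ± 0.192 and 4.51 ± 0.354 (SD, n = 3 each), a difference of 0.27 (SE 0.12) as deposited and 0.28 (SE 0.08) after correction. It did not pass the threshold in any setting, with values of 0.22 to 0.46.

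SLC1A4 (ASCT1; ENSG00000115902, chr2:64988477-65023865, plus strand) exchanges alanine, serine, cysteine and threonine. It was low throughout, at 0.774, 0.863 and 1.05 FPKM in the silenced libraries against 2.94, 2.34 and 1.75 in the controls. Each control exceeded each silenced library, and within the controls replicate 1 was the highest and replicate 3 the lowest, as for SLC7A5. Means were 0.896 ± 0.141 and 2.34 ± 0.595 (SD, n = 3 each), 2.62-fold higher in sh-NC, and 141 to 805 reads lie behind each value. The difference was -1.01 (SE 0.20), where the pseudocount shrinks the change of so low a gene, and -0.71 (SE 0.12) after correction. SLC1A4 passed the threshold in 8 of 15 other settings without a replicate block. Leaving out any 1 library other than sh-NC replicate 3 ended the call, with differences of -1.37 to -0.71 over all settings. The difference ran from -1.09 (leaving out sh-CFB replicate 3) to -0.86 (leaving out sh-NC replicate 1) where the call was lost this way.

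The glutamine carrier SLC1A5 (ASCT2; ENSG00000105281, chr19:46774883-46788594, minus strand), of the same family, was at 32.8, 27.5 and 28.3 FPKM in the silenced libraries against 40.3, 35.9 and 33.6 in the controls. The ranges did not overlap but nearly met, between sh-CFB replicate 1 and sh-NC replicate 3. Its means, 29.5 ± 2.88 and 36.6 ± 3.39 (SD, n = 3 each), were 1.24-fold apart. The difference of -0.30 (SE 0.11) was -0.16 from the median gene and did not pass the threshold. An antisense gene, AC008622.2, overlaps 23.4% of its exon length and was at 0.137 and 0.16 FPKM.

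SLC38A1 (SNAT1; ENSG00000111371, chr12:46183063-46270017, minus strand) takes up glutamine with sodium. It was at 8.85, 17.2 and 17.6 FPKM in the silenced libraries against 31.7, 23.2 and 12.3 in the controls. The groups overlapped: the lowest control lay below 2 of the silenced libraries. Means were 14.5 ± 4.92 and 22.4 ± 9.75 (SD, n = 3 each). The difference was -0.57 (SE 0.37) and turned to 0.04 without replicate 1 of both groups. Its neighbour on the same chromosome, SLC38A2 (SNAT2; ENSG00000134294, chr12:46358189-46372867, minus strand), a carrier known to be induced when amino acids run short, was at 28.6, 55.7 and 59.8 FPKM in the silenced libraries against 72.2, 55.4 and 40.3 in the controls. Again 2 silenced libraries lay inside the range of the controls. Its means, 48.0 ± 17.0 and 55.9 ± 15.9 (SD, n = 3 each), lay well within the spread of either group. The difference was -0.25 (SE 0.31) as deposited and -0.06 (SE 0.13) after correction. It was 0.08 without sh-CFB replicate 1, and 0.29 without replicate 1 of both groups. For both genes the lowest library was sh-CFB replicate 1 and the highest sh-NC replicate 1, and both are low in GC (41.3% and 38.1%, against a median of 49.3% over all genes tested).

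**Figure D2:**
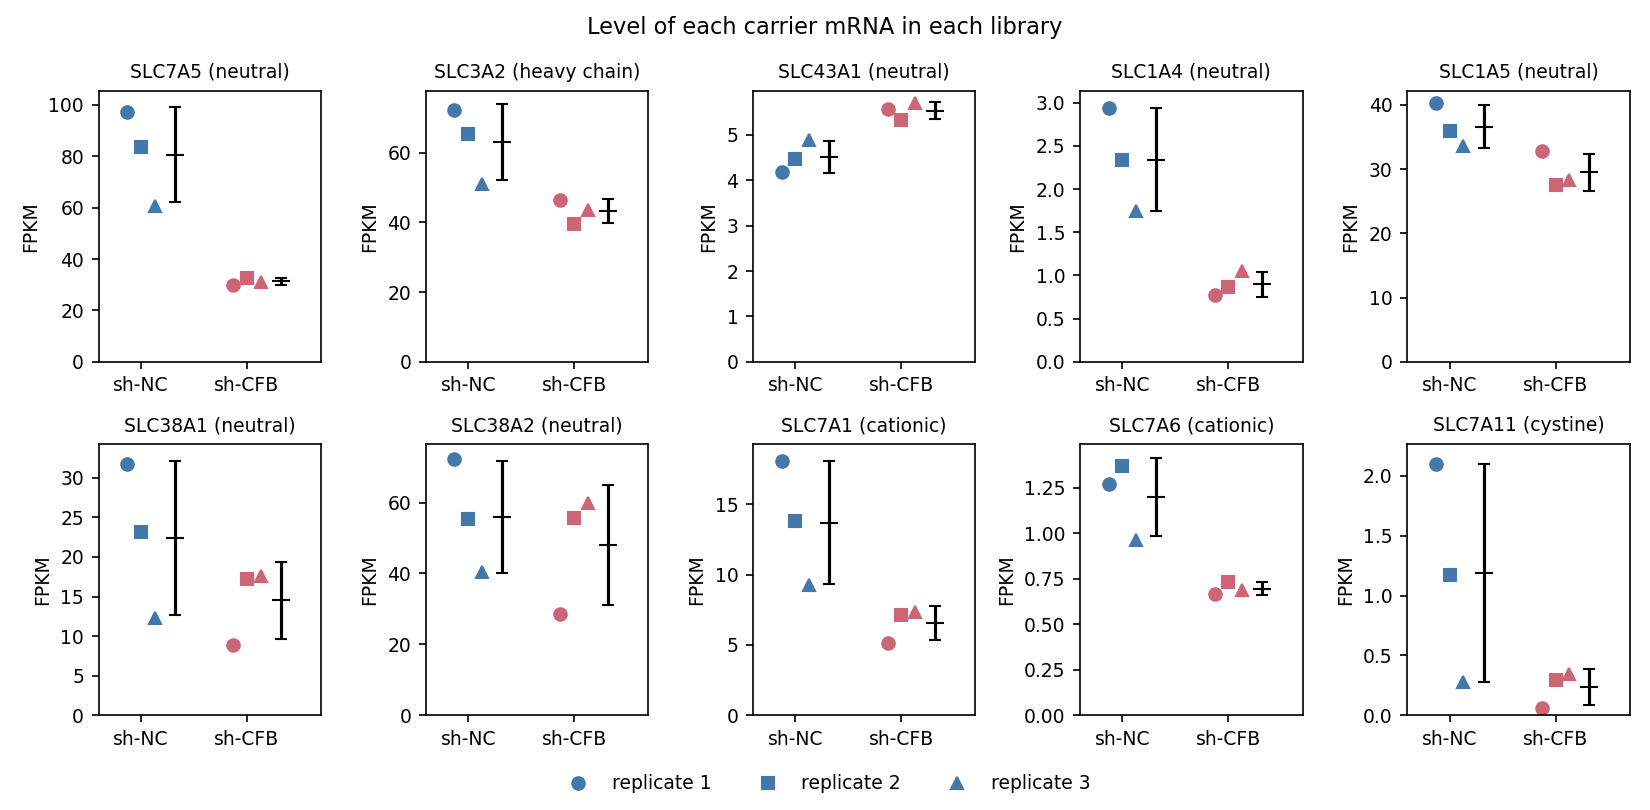
FPKM of each carrier on a linear axis from 0, 1 panel per carrier with its own scale; symbols are the 3 libraries of each group by replicate number and black bars the group mean ± SD. For SLC7A5, SLC1A4 and SLC7A1 the groups are apart, with SLC7A5 at 29.9 to 32.8 in sh-CFB and 60.6 to 97.2 in sh-NC, while for SLC38A1, SLC38A2 and SLC7A11 they overlap.

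SLC7A1 (CAT1; ENSG00000139514, chr13:29509410-29595688, minus strand) is the main uptake route for arginine and lysine in many cells. FPKM stood at 5.16, 7.14 and 7.34 in the silenced libraries against 18.1, 13.8 and 9.25 in the controls. All controls lay above all silenced libraries, with sh-NC replicate 3 the nearest to them. Means were 6.55 ± 1.21 and 13.7 ± 4.40 (SD, n = 3 each), 2.09-fold apart. The difference of -0.98 (SE 0.24) did not pass the threshold as deposited. With GC and length corrected it stood at -0.77 (SE 0.17) and passed, where 6.02% of all genes tested passed lower and 4.72% higher. It also passed among genes of a mean FPKM of 2 or more and without sh-NC replicate 3, at -1.22.

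SLC7A6 (y+LAT2; ENSG00000103064, chr16:68264516-68301823, plus strand) joins SLC3A2 to send arginine out in exchange for neutral amino acids. It was at 0.668, 0.734 and 0.686 FPKM in the silenced libraries against 1.27, 1.37 and 0.964 in the controls, from 133 to 417 reads a library. Group means were 0.696 ± 0.0342 and 1.20 ± 0.212 FPKM (SD, n = 3 each). The groups were apart as deposited and overlapped after the correction, which moved the difference from -0.50 (SE 0.17) to -0.21 (SE 0.14). On the opposite strand SLC7A6OS covers 3371 bases, or 44.4%, of the SLC7A6 exons and was at 1.38 FPKM in sh-CFB and 1.60 in sh-NC. The library kit keeps strand, but the strand setting of the counting is not given in the sources used here, so reads of the pair cannot be told apart and the SLC7A6 values are uncertain.

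SLC7A11 (xCT; ENSG00000151012, chr4:138164097-138242349, minus strand), the cystine carrier, was the lowest of the 10. It was at 0.0632, 0.295 and 0.343 FPKM in sh-CFB, from 16, 95 and 127 reads. In sh-NC it was at 2.10, 1.17 and 0.280 FPKM, from 800, 453 and 89 reads. The controls alone spread 7.51-fold and the silenced libraries 5.42-fold, and sh-NC replicate 3 fell inside the range of sh-CFB. Means were 0.234 ± 0.150 and 1.19 ± 0.911 FPKM (SD, n = 3 each). The difference was -1.06 (SE 0.41) and did not pass the threshold. At so low a level the pseudocount shrinks it: it was -1.74 with a pseudocount of 0.1 and -2.17 by limma-voom on the recovered reads. It was -0.66 without sh-NC replicate 1 and -0.48 without replicate 1 of both groups, and passed only without sh-NC replicate 3, at -1.53. After the correction it was -0.90 (SE 0.25) and the groups no longer overlapped. Its GC content, 35.4%, is the lowest of the group. The antisense gene SLC7A11-AS1, which covers 9.0% of its exon length, had 8, 8 and 0 reads in the controls and none in sh-CFB.

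FPKM is per length, so levels can be ordered between genes only as far as the gene lengths used hold. The order below is by deposited FPKM. With annotated exon lengths, a setting added after seeing the data, SLC7A5 per SLC3A2 was 1.09, 1.04 and 0.967 in the controls. With those lengths the pair did not keep its order in sh-NC replicate 3. In sh-NC the order of the means was SLC7A5, SLC3A2, SLC38A2, SLC1A5, SLC38A1, SLC7A1, SLC43A1, SLC1A4, SLC7A6 and SLC7A11. The ranges of neighbours overlapped for SLC7A5 with SLC3A2, SLC3A2 with SLC38A2 and SLC38A1 with SLC7A1, although each pair kept this order in all 3 libraries, and for SLC7A6 with SLC7A11, which kept it in 2 of 3. SLC7A5 stood at percentile 95.4 of all genes tested by its sh-NC mean, SLC3A2 at 94.1, SLC38A2 at 93.3 and SLC1A5 at 89.9, against 38.0 for SLC1A4, 20.6 for SLC7A6 and 20.1 for SLC7A11. In sh-CFB the order began SLC38A2, SLC3A2, SLC7A5 and SLC1A5 and was otherwise the same. There SLC38A2 overlapped SLC3A2 and lay above it in 2 of 3 libraries, so neither is set at the top. SLC7A5 was below SLC3A2 with no overlap and shared its range with SLC1A5, and SLC7A1 overlapped SLC43A1.

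Ratios taken within a library cancel its depth. The level of SLC7A5 per SLC3A2 was 0.643, 0.828 and 0.716 in the silenced libraries against 1.35, 1.28 and 1.19 in the controls, lower in every silenced library than in any control. Which of the pair is the more abundant in the controls depends on the gene length used: the deposited FPKM of SLC3A2 rests on 6392 bases against 5178 in the annotation, and with annotated exon lengths (a setting added after seeing the data) the ratios were 0.523, 0.674 and 0.582 for sh-CFB and 1.09, 1.04 and 0.967 for sh-NC. The gap between the groups does not depend on it. The log2 ratio as deposited was -0.46 ± 0.18 and 0.34 ± 0.09 (SD, n = 3 each), a difference of -0.81. SLC1A5 per SLC1A4 was 42.4, 31.9 and 26.9 in the silenced libraries against 13.7, 15.3 and 19.2 in the controls, a log2 difference of 1.06 with no overlap. With GC and length corrected that difference was 0.70; the genes differ in GC content, at 61.3% for SLC1A5 and 46.5% for SLC1A4. SLC38A2 per SLC38A1 was 3.23, 3.24 and 3.40 in the silenced libraries against 2.27, 2.39 and 3.28 in the controls, and the groups overlapped. The ratio of SLC7A11 to the shared heavy chain SLC3A2 also overlapped, at 0.00136, 0.00746 and 0.00785 against 0.0291, 0.0179 and 0.0055, and its log2 difference of -1.72 shrank to -0.37 without replicate 1 of both groups.

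**Figure D3:**
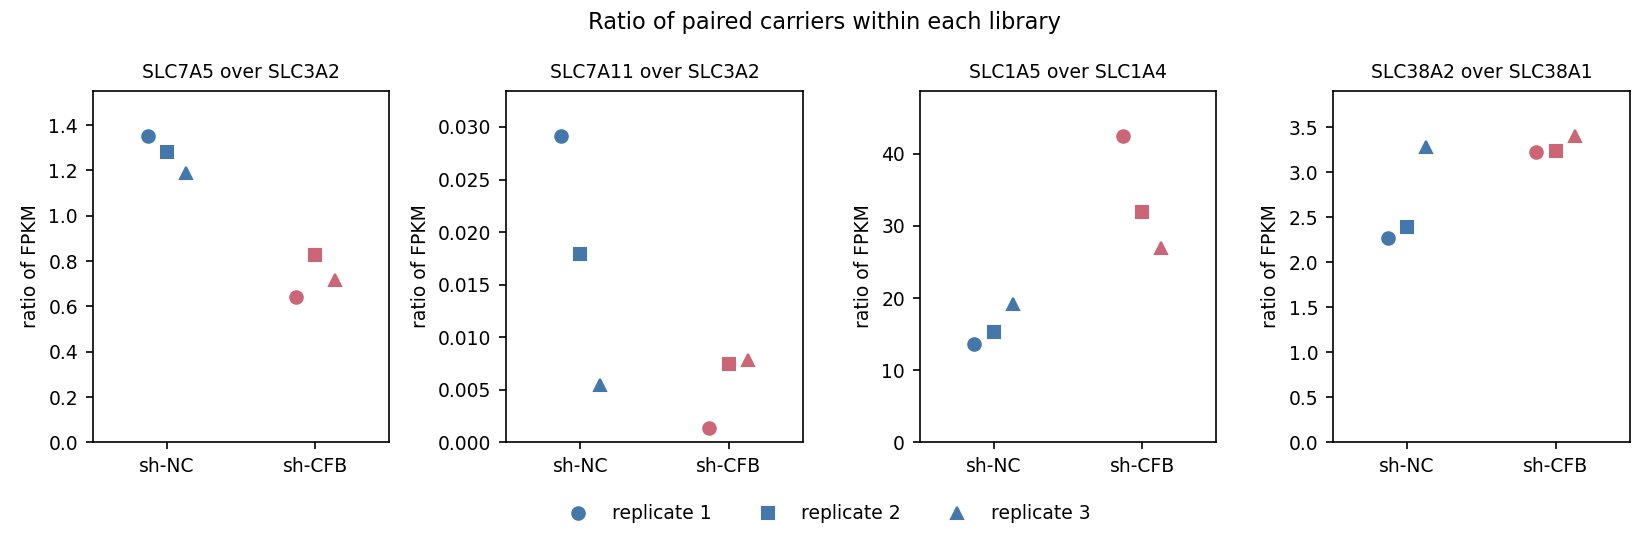
Ratio of FPKM within each library for 4 pairs of carriers, on linear axes from 0 with 1 panel per pair and 1 symbol per library. SLC7A5 over SLC3A2 is at most 0.828 in the 3 sh-CFB libraries and at least 1.19 in the 3 sh-NC libraries, and the ratios of SLC7A11 to SLC3A2 and of SLC38A2 to SLC38A1 overlap between the groups.

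Libraries did not spread evenly around the group means. Among the controls sh-NC replicate 3 was the lowest for 9 of the 10 carriers, and sh-NC replicate 1 was the highest of all 6 libraries for 8. At the other end sh-CFB replicate 1 was the lowest of all 6 for 7. On the log2 scale SLC38A1 stood 0.88 above its mean in sh-NC replicate 1 and fell by 0.91 below it in sh-CFB replicate 1, and after the correction those deviations were 0.46 and -0.42. For SLC7A5, with 61.1% GC, the same libraries deviated by 0.96 and -0.72 as deposited and by 1.02 and -0.78 after correction. So the correction narrowed the spread of the low-GC carrier SLC38A1 and left that of SLC7A5 as wide. The part of GC content in the differences was not tested beyond this correction.

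**Figure D4:**
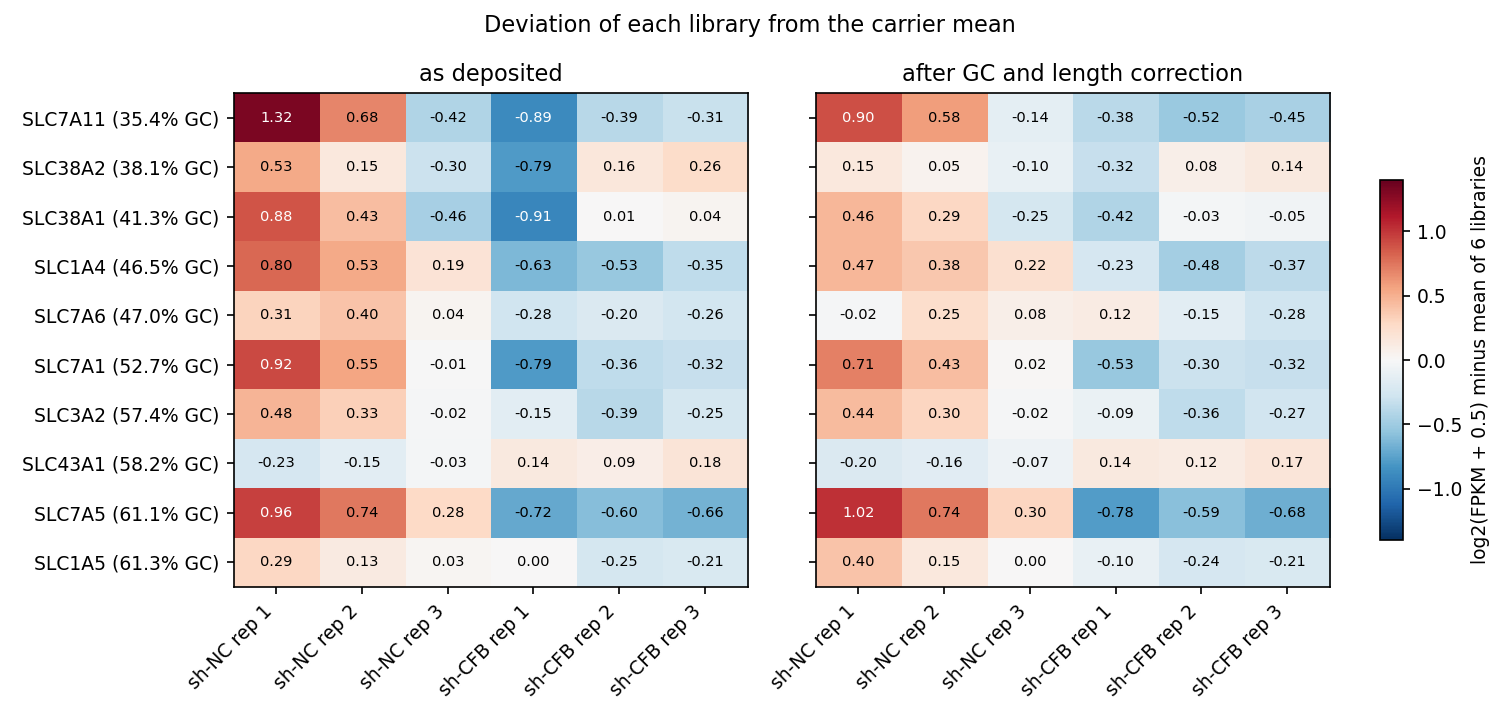
Heat map of the deviation of each carrier (rows, ordered by GC content) from its own mean over the 6 libraries (columns) on the log2(FPKM + 0.5) scale, as deposited on the left and after the GC and length correction on the right; red is above and blue below the mean. SLC38A1 and SLC38A2 shrink toward 0 in both replicates numbered 1 after correction, from -0.91 to -0.42 and from -0.79 to -0.32 in sh-CFB, while SLC7A5 stays at 1.02 and -0.78 there.

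The genes most like SLC7A5 were ranked by the root mean square distance between log2(FPKM + 0.5) profiles over the 6 libraries, each centred on its mean, among 7589 genes that had a symbol, were not pseudogenes and whose mean FPKM was 2 or more. The closest were WARS1 (distance 0.050), MARS1 (0.085) and AARS1 (0.091), the cytosolic tRNA synthetases for tryptophan, methionine and alanine. WARS1 was at 9.72, 10.8 and 10.2 FPKM in the silenced libraries against 33.0, 28.7 and 22.2 in the controls, with the controls above every silenced library and replicate 3 the lowest of them. Next came CDC6 (0.125), a replication licensing factor, TRIB3 (0.127), a pseudokinase of the stress response, and HERPUD1 (0.129), HYOU1 (0.130) and HSPA5 (0.151), which serve protein folding and degradation in the endoplasmic reticulum. HSPA5 was at 113, 112 and 102 FPKM in the silenced libraries against 273, 242 and 174 in the controls. Having been chosen for a profile like that of SLC7A5, these genes had to differ between the groups, so no test is given for them here. TRIB3 comes up again below as a member of a list. After the GC and length correction, 3 of the 8 remained among the closest 8 (AARS1, TRIB3 and WARS1). Of the carriers, SLC7A1 ranked 37 (0.224) and SLC3A2 615 (0.416), while SLC43A1 ranked 6549 (0.839).

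**Figure D5:**
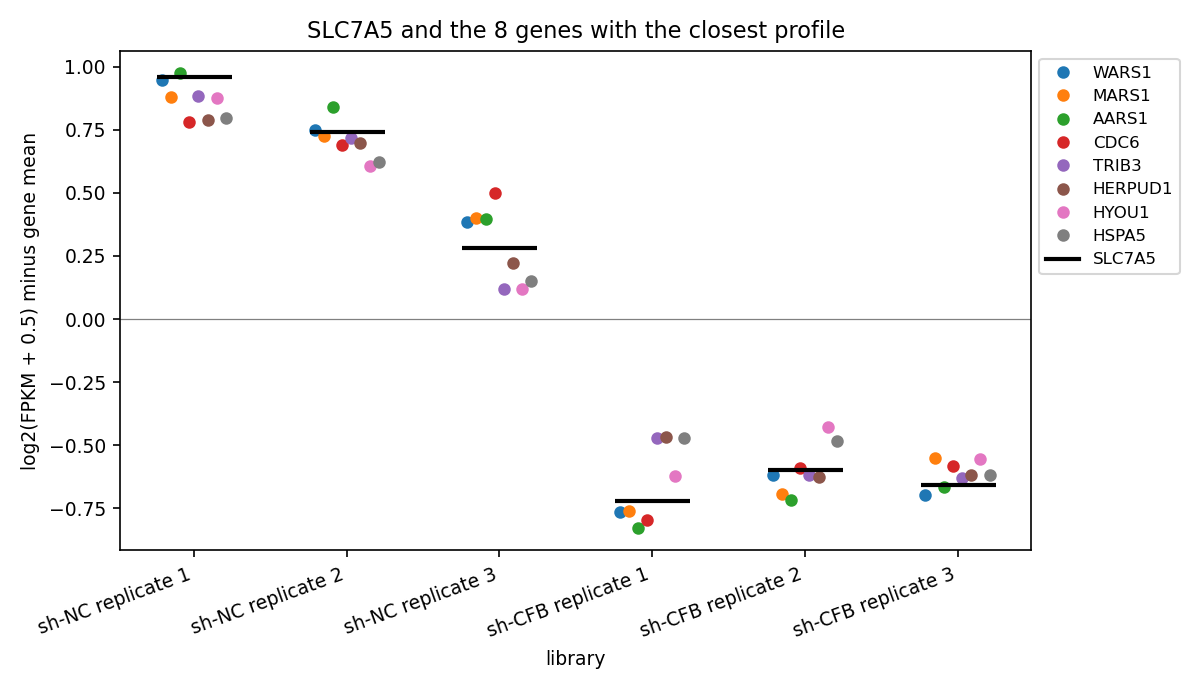
Log2(FPKM + 0.5) minus the gene's mean over the 6 libraries, for SLC7A5 (black bars) and the 8 genes closest to it (coloured points), by library. All lie above 0 in the 3 sh-NC libraries and below 0 in the 3 sh-CFB libraries, and among the controls replicate 3 is the lowest for each.

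The genes around the carriers were read from lists, of which the share that passed the same limma threshold is set beside the 7.45% over all genes tested. An unadjusted p under 0.05 in limma was found for 3225 of the 12466 genes tested. These lists, like the members, were chosen with earlier results of these data known. Their counts and adjusted p-values are therefore a description and no independent test. Of 32 other amino acid carriers of the plasma membrane, 6 were expressed enough to test and 0 of the 6 passed, by limma or by limma-voom on recovered reads, with 0 at an unadjusted p under 0.05. With GC and length corrected 1 passed, the glutamate carrier SLC1A1, at 0.45 (limma adjusted p = 0.0488), against 0.17 as deposited. Their median was -0.23, close to the median gene. The most abundant, the taurine carrier SLC6A6, was at 5.35 ± 0.965 FPKM in sh-CFB and 6.36 ± 1.60 in sh-NC (SD, n = 3 each), a difference of -0.22 (limma adjusted p = 0.557). Among 19 tested carriers of lysosomes and mitochondria, 1 passed (5.26%) and the median was -0.21. That gene, SLC25A13 (citrin), which exports aspartate from mitochondria, fell from 12.3 ± 1.01 to 4.88 ± 0.812 FPKM (SD, n = 3 each), by 1.26 on the log2 scale (SE 0.15, limma adjusted p = 0.0091).

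Of 23 tested regulators of carrier transcription, 2 passed (8.7%), both lower. In limma 8 had an unadjusted p under 0.05, as had 3225 of all 12466 genes tested. TRIB3 fell from 48.1 ± 12.5 to 20.9 ± 1.31 FPKM (SD, n = 3 each; limma adjusted p = 0.0164). CEBPB, which pairs with ATF4 at amino acid response elements, fell from 32.2 ± 2.28 to 21.4 ± 1.31 (limma adjusted p = 0.0190). Outside the naming rule, and chosen after their values were seen, ATF4 mRNA was at 150 ± 18.4 FPKM in sh-CFB and 167 ± 14.4 in sh-NC (difference -0.16, limma adjusted p = 0.437). MYC was at 80.5 ± 6.87 and 63.5 ± 3.02 (0.34, limma adjusted p = 0.0767), without overlap, and passed at 0.49 with GC and length corrected (limma adjusted p = 0.0171). NFE2L2, the regulator of antioxidant genes, was at 3.98 ± 1.20 and 4.01 ± 0.912 (-0.03, limma adjusted p = 0.959). Other regulators that did not pass had larger differences, in both directions. DDIT3 was at -0.91 (limma adjusted p = 0.0741) and PPP1R15A at 0.61 (limma adjusted p = 0.104), both without overlap. CEBPG was at -0.82 (limma adjusted p = 0.149), with overlap. ATF4 is controlled largely at translation, which was not measured. Another list held 36 tested genes through which mTORC1, the kinase that leucine and arginine switch on, senses amino acids. Of these 3 passed (8.33%), all lower, with a median of -0.15 equal to that of all genes. SESN2, the leucine sensor sestrin 2, fell from 18.6 ± 5.96 to 7.86 ± 1.35 FPKM (limma adjusted p = 0.033) and RRAGA, a Rag GTPase, from 24.2 ± 0.855 to 13.2 ± 2.31 (limma adjusted p = 0.0137). Of 16 other settings without a replicate block, the call held in 13 for RRAGA, 12 for CEBPB, 11 for TRIB3 and 7 for SESN2.

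Enzymes that use the carried amino acids were read the same way. Of 16 tested genes of glutamine and neutral amino acid use, 4 fell and none rose at the limma threshold, with a median of -0.28. PSAT1, of serine synthesis, fell by 1.69 on the log2 scale (limma adjusted p = 0.00788), and the aspartate aminotransferase GOT1 fell from 47.0 ± 2.36 to 22.8 ± 0.822 FPKM (SD, n = 3 each; limma adjusted p = 0.00613). Of 21 tested genes of cystine and glutathione use, 3 fell and 1 rose (19.0% in all). The median was -0.31 as deposited and -0.08 with GC and length corrected. The glutathione-degrading enzyme CHAC1 fell from 8.53 ± 1.16 to 2.91 ± 0.422 FPKM (limma adjusted p = 0.00839), thioredoxin reductase TXNRD1 fell from 36.6 ± 13.5 to 14.2 ± 4.90 (limma adjusted p = 0.0483), and GGT7 rose from 15.5 ± 1.73 to 24.0 ± 1.71 (limma adjusted p = 0.0237). The TXNRD1 call held in 5 of 16 other settings without a replicate block and the GGT7 call in 9; both were lost with median-of-ratios factors and with any library but sh-NC replicate 3 left out. Of 20 tested genes of cationic amino acid use, 3 fell and none rose, with a median of -0.16. The polyamine enzyme ODC1 fell from 107 ± 1.32 to 65.1 ± 7.85 FPKM (limma adjusted p = 0.0133).

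As carriers of other cargo, 17 tested genes for sugar, lactate, nucleosides and vitamins had a median of -0.00, and 2 fell (11.8%). SLC35B1, which brings ATP into the endoplasmic reticulum, was at -0.83 (limma adjusted p = 0.0133). The vitamin carrier SLC5A6 was at -0.48 (limma adjusted p = 0.0457), and its call held in 4 of 16 other settings without a replicate block. Mitochondrially encoded genes, read as a sign of RNA composition, had a median of -0.36 and 0 of 13 passed limma, with 2 at an unadjusted p under 0.05 and 0 by limma-voom; MT-CO2 had the highest level. Over the 9 lists 169 genes were tested and 19 passed as deposited, 5 with median-of-ratios factors and 1 to 18 with 1 library left out. Without sh-NC replicate 2 the calls of PSAT1, CHAC1, ODC1, SLC25A13 and SLC35B1 were lost, and that of GOT1 held in all 16 other settings without a replicate block. None of the lists of regulators, mTORC1 sensing, cationic amino acid use and other cargo held a gene that passed with those factors. Under these factors 1.11% of all genes passed lower and 0.545% higher. SLC7A5 and SLC1A4 were among those lower, at -1.12 and -0.86. For these carriers that is a description only, since the contrast was used to list them.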

How the data were processed

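RNA of 6 NCI-H1299 libraries was taken up in TRIzol and made into stranded poly(A) libraries, per the labels' protocols. Values are FPKM that the authors deposited in 1 table with a column per library, all used. FastQC 0.11.9, Trimmomatic 0.39, STAR 2.7.3a, featureCounts 2.0.1 and GRCh38 are named in the submitters' processing notes; the strand setting, annotation release and handling of reads with several matches were not given in the sources used here. Groups came from the sample titles.

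Whole reads were recovered from the FPKM steps (99.96% of genes whole within 0.02), giving 26.2, 33.4 and 38.4 M reads for silenced replicates 1 to 3 and 39.4, 40.0 and 32.9 M for the controls. Of 28495 genes, 22492 had a symbol in the supplied name table. Coordinates, GC content and exon overlaps came from GENCODE 29.

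The 12466 genes whose mean FPKM was 0.5 or more were compared as log2(FPKM + 0.5) with limma 3.58.1 (trend) in R 4.3.3 and Benjamini-Hochberg adjustment at 0.05, using all 6 libraries and no covariate. Fold changes on that scale understate changes of low genes. On simulated data of these 12466 genes the test recovered 49 of 50 genes raised and 47 of 50 lowered 2-fold, with 22 false calls. The simulation gave every gene the same fixed spread, with no GC effect and no outlying library. These counts therefore check the code and are not the rate of detection in the real libraries. The GC and length correction fits a smooth term per library (mgcv 1.9.3); GC was known for 99.4% of tested genes. Python 3.11.15 did the rest. The members and lists were chosen with earlier results of these data known. In each list up to 2 genes per direction that passed and had the largest difference are named, or the most abundant where none passed, with the 8 genes nearest SLC7A5. Some genes that this rule picks are not reported here. The alternatives were other pseudocounts, filters, scalings, the GC and length correction, a replicate block, limma-voom on recovered reads and each library left out.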

Additional observations from a re-analysis of the deposited data

How the results depend on the processing

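All settings were planned but the exon lengths of the SLC7A5 to SLC3A2 ratio, added after seeing the data. Of 12466 genes, 929 passed limma (217 higher, 712 lower), 324 with no filter on low values and 206 with median-of-ratios factors (68 higher, 138 lower); the split was 588 higher and 750 lower after the GC and length correction and 465 and 636 after quantile normalization. Leaving out 1 library gave 511, 39 or 400 when it was sh-CFB replicate 1, 2 or 3, and 249, 20 or 540 when it was sh-NC replicate 1, 2 or 3, a range of 20 to 540. Of the carriers 2 passed, 1 with no filter, 1 without replicate 1 of both groups, 3 after the GC and length correction and 0 to 5 with 1 library left out. Of 169 listed genes 19 passed, 10 with no filter, 5 with median-of-ratios factors and 1 to 18 with 1 library left out. The carriers' median difference kept its sign, at -0.80 to -0.37. The SLC7A11 to SLC3A2 log2 ratio difference moved to -0.37 without replicate 1 of both groups, and that of SLC1A5 to SLC1A4 to 0.70 after correction. The cause was not tested.

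Same-numbered libraries are not shown to be paired: their deviations correlated across genes at -0.54, 0.07 and -0.45, and sh-CFB replicate 1 ran closest to sh-NC replicate 3 (0.57). With a replicate block limma passed 0 genes in all, 0 carriers and 0 listed genes, with 1770, 4 and 35 at an unadjusted p under 0.05, and the block with the GC and length correction also passed 0, 0 and 0, with 2478, 7 and 40; no other tool was run with the block. The spread between the 3 libraries of a group limits the precision of the carriers; the lowest read count behind a value was 16, for SLC7A11.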

Other observations

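Outside the lists above, 137 other protein-coding SLC carrier genes were tested, counted after leaving out 38 symbols already listed and 11 pseudogenes, antisense and other transcripts that only share the prefix. Of these, 4 fell and 2 rose at the limma threshold (4.38%, against 7.45% over all genes tested), with a median of -0.07. With GC and length corrected 3 were lower and 8 higher. The 2 that rose were SLC17A7, a vesicular glutamate carrier (0.94 on the log2 scale), and SLC27A1, which takes up fatty acids (0.86).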
